A study of Mus musculus with 16 samples.

Results

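The genes described here encode fibronectin (Fn1), a glycoprotein of the extracellular matrix, and 9 subunits of the integrins that bind matrix: the alpha subunits Itga1, Itga2, Itga3, Itga5, Itga6 and Itgav, and the beta subunits Itgb1, Itgb3 and Itgb5. They were taken by gene name and are 10 of the 57010 genes counted in mouse granulosa cells (mGCs), which line the ovarian follicle and nourish its oocyte. With the counts, on the build named in the submitters' processing notes (GRCm39), Fn1 lies at chr1:71624679-71692359 on the minus strand, Itga3 at chr11:94935300-94967627 (minus), Itga5 at chr15:103252713-103275190 (minus), Itga6 at chr2:71575960-71688760 (plus) and Itgav at chr2:83554741-83637260 (plus). Itga1 (chr13:115089632-115238500) and Itga2 (chr13:114969617-115068636) are neighbours on the minus strand, and the beta chains Itgb1 (chr8:129412135-129459681), Itgb3 (chr11:104498826-104561302) and Itgb5 (chr16:33650035-33769708) lie on the plus strand. All 10 are protein-coding, and each was counted as a whole gene. Every member passed the filter on low counts in each comparison, and the lowest count of any member in any library was 204 (Itga1). RNA-seq was done in 2 experiments on ICR mice, an outbred stock bought at 6 weeks of age for surgery. In the first, mGCs were isolated after ovulation induction from 5 mice that had sham surgery (Con-mGC group) and from 5 mice of an endometriosis model (EM-mGC group), in which endometrium of a donor ICR mouse was stitched to the mesentery. In the second, mGCs of 6 mice of the EM model were split at random and cultured in DMEM/F12 with 5% serum. They were given 100 nM 14,15-EET, an epoxide of arachidonic acid, for 24 hours (EET group) or an equal volume of PBS (PBS group), with 3 libraries in each. A figure legend of the study places 24 hours of culture before these 24 hours, whereas the sample titles give 24 hours only. No engineered allele is named for any of the 4 groups, recipient mice received estradiol for 14 days and then a washout before ovulation induction at day 30 with PMSG or HCG, and both cultured groups came from EM mice. How the 6 mice were spread over the 3 cultured replicates is not given in the sources used here.

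Integrins are heterodimers of an alpha and a beta chain that span the plasma membrane and link matrix outside the cell to actin inside it. The pairs alpha5-beta1 and alphav-beta3 bind the RGD motif of fibronectin, alphav-beta5 binds mainly vitronectin, alpha1-beta1 and alpha2-beta1 bind collagens, and alpha3-beta1 and alpha6-beta1 bind laminins. In the follicle, granulosa cells sit on a laminin-rich basal lamina and secrete fibronectin, and in culture they attach to plastic through integrins.

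The fresh libraries held between 14229123 and 15999234 counted reads and the cultured ones between 21384686 and 29482826. Mitochondrial genes took 21.8% of the counts in EM-mGC replicate 3, between 6.76% and 11.1% in the other fresh libraries, and between 1.18% and 1.64% in the cultured ones. The log2 fold changes of the members in the fresh comparison are therefore also given without that replicate. The label of granulosa cell was checked against 10 markers. Inha, the inhibin alpha chain, was the most abundant of them in the fresh libraries, with a mean of 5430.2 CPM, the counts of a gene relative to the library total after scaling with TMM factors. Cyp19a1 (aromatase) had a mean of 289 CPM in the EM-mGC group and 0.169 CPM in the PBS group, and Amh (anti-Mullerian hormone) had 52.2 and 0.303 CPM. Fshr, the receptor for follicle-stimulating hormone, had 103 and 5.16 CPM, and Foxl2, a transcription factor of granulosa cells, had 219 and 146 CPM. All 10 markers had log2 fold changes below 0. Over the list, 9 of the 10 markers were called lower and 0 higher in the PBS group (edgeR, median log2 fold change -2.18), in a comparison where 71.7% of the 18484 genes tested were called, 7398 lower and 5853 higher.

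The starts of transcription differed in their sequence among the members. RefSeq promoters of GRCm38.p6, from 250 bases before to 50 bases after the start, were at hand for 7 of the 10 members, namely Itga1, Itga2, Itga3, Itga5, Itgav, Itgb1 and Itgb5. Those of Itga3 and Itgb5 are shown because both genes had lower values in all EET than in all PBS libraries and higher values in culture in the results that follow, and that of Itga1 for contrast, since it was low in every group. Letters run 5′ to 3′ on the strand of the gene, and capitals mark the SP1 box (GGGCGG, or CCGCCC where it lies on the other strand). Itga3 had 2 entries, and the one farthest upstream is printed.
Itga3 promoter (chr11:95076665-95076964, minus strand): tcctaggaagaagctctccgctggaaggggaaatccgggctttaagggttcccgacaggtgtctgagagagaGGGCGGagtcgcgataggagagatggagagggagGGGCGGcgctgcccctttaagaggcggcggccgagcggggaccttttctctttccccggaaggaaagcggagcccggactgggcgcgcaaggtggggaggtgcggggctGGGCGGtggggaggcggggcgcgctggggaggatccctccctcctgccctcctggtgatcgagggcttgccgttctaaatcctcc
Itgb5 promoter (chr16:33829415-33829714, plus strand): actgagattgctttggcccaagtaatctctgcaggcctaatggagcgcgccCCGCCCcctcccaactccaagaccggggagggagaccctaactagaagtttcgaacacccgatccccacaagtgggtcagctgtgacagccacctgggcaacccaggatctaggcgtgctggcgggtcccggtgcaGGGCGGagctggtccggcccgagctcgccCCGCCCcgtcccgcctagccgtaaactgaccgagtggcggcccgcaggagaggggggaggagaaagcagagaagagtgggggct
Itga1 promoter (chr13:115101915-115102214, minus strand): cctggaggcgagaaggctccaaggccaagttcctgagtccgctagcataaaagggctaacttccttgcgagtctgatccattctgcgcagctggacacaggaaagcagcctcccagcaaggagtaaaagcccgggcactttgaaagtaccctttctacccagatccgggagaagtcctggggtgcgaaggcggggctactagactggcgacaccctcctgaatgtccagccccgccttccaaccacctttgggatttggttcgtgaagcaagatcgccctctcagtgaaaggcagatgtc
Itga3 and Itgb5 held 3 SP1 boxes each, Itga5 held 2, Itga2, Itgav and Itgb1 held 1 and Itga1 held 0. Such a box was present in 35.9% of the 27025 promoters in the table. The promoters were rich in G and C, at 66.7% for Itga3, 65.7% for Itgb5 and 56.7% for Itga1, against a median of 52.7% over all promoters. On both strands, a TEAD site (GGAATG) was found once in Itgb1 and in none of the other 6, against 14.6% of all promoters. The CCAAT box (CCAAT, 37.9% of all promoters), the AP-1 site (TGANTCA, 7.93%) and the CArG box (1.57%) were in 0 of the 7. These letters do not overlap one another, and a match describes the sequence without showing that a factor binds it.

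Beta1 was the leading integrin transcript of fresh mGCs and beta5 that of cultured mGCs. Levels between genes are compared here as TPM, which divide counts by exon length before relating them to the library total. In the Con-mGC group Itgb1, the partner of most alpha chains listed, had 378 ± 56.3 TPM (SD, n = 5) and ranged from 289.7 to 428. Itgb5, which pairs with alphav, had 183 ± 23.9 TPM and its range, 146 to 208, lay below that of Itgb1 and above that of Fn1. Fn1 (68.4 TPM), Itgav (61.6), Itga5 (50.9), Itga2 (43.5), Itgb3 (39.0), Itga3 (35.8) and Itga6 (31.3) followed, and each overlapped its neighbour in this order. Itga1, a collagen receptor chain, was lowest at 4.95 ± 1.006 TPM, and its highest library (6.24) lay below the lowest of Itga6 (24.8). The order was similar in the EM-mGC group, from Itgb1 at 358 TPM and Itgb5 at 146 TPM to Itga1 at 3.25 TPM, with Fn1 at 96.2 TPM. TPM were not scaled with TMM factors and are read within a group, not as changes between groups. Itgb1, lower in TPM in the EM-mGC group, had means of 477 CPM in the Con-mGC and 529 CPM in the EM-mGC group. Here the ranges of Itgb5 (81.8 to 168) and Fn1 (69.6 to 132) overlapped. The median of Itgb5, 164 TPM, lay above the highest Fn1 library, so the overlap came from the low end of Itgb5. TPM were not recomputed without EM-mGC replicate 3.

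In the PBS group Itgb5 led with 1886 ± 37.2 TPM (SD, n = 3), above Itgb1 at 685 ± 56.6 TPM. Itga5, the fibronectin receptor chain, was the leading alpha transcript at 118 TPM (range 117 to 118), followed by Itgb3 (92.5 TPM), Fn1 (87.8 TPM) and Itga3 (77.5 TPM), of which Itgb3 and Fn1, and Fn1 and Itga3, overlapped. Itgav (40.5 TPM), Itga2 (21.8), Itga6 (16.9) and Itga1 (2.42) were lower. Of the summed TPM of the 3 beta members, Itgb1 made up 62.7% in the Con-mGC group, 64.6% in the EM-mGC group, 25.7% in the PBS group and 29.7% in the EET group. The share of Itgb5 was 30.9%, 25.9%, 70.8% and 67.2% in the same order, and that of Itgb3 was 6.44%, 9.44%, 3.48% and 3.09%. Of the 6 alpha members, Itga5 and Itga3 held the larger shares in culture (42.5% and 28.0% in the PBS group, 26.1% and 13.6% in the EM-mGC group, the fresh cells of the same model, and 22.4% and 15.8% in the Con-mGC group). Itgav had a smaller share in culture, with 14.6% in the PBS group, 25.4% in the EM-mGC group and 26.9% in the Con-mGC group, and so had Itga2, with 7.87%, 20.8% and 19.0% in the same order. These shares are a description without a test, and a contrast of the PBS group with the Con-mGC group mixes surgery with culture. Fewer cells of a type and less RNA per cell cannot be told apart in such bulk samples, and transcripts are not receptor proteins.

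**Figure D1:**
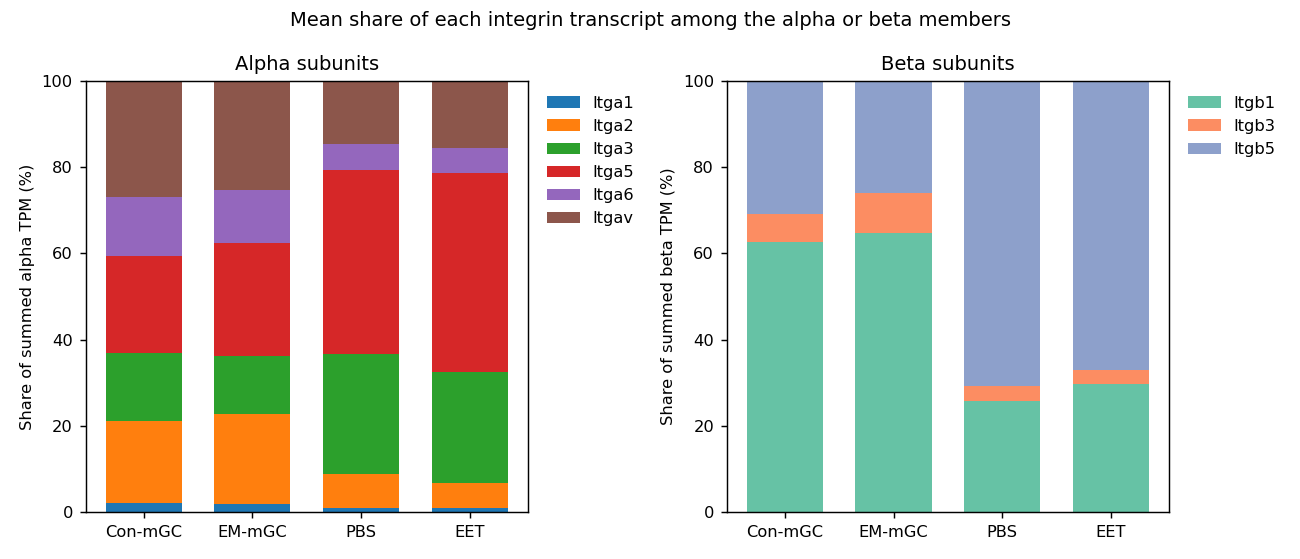
Mean share (%) of each member in the summed TPM of the 6 alpha (left) or 3 beta members (right), 1 stacked bar per group (n = 5 for Con-mGC and EM-mGC, n = 3 for PBS and EET). Itgb1 fills 62.7% and 64.6% of the beta bars of fresh cells, and Itgb5 70.8% and 67.2% of those of cultured cells.

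The first comparison asked how mGCs of mice with endometriosis differ from those of sham mice. Fn1 and Itgb3 had higher means and Itga6, Itga1 and Itga3 lower means in the EM-mGC group, but no member passed the test across all genes (0 of 10). This reads against a background of 0% of the 17229 genes tested at an adjusted p under 0.05 (edgeR's quasi-likelihood test, Benjamini-Hochberg adjustment), where the smallest adjusted p of any gene was 0.207 and 9.44% of the genes had an unadjusted p under 0.05. At that unadjusted level, 2 members were higher and 3 were lower. The median log2 fold change was -0.05 over the members and -0.01 over all genes tested.

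Fn1, the ligand, had 193, 231, 372, 248 and 193 CPM in the 5 Con-mGC libraries and 271, 374, 625.1, 554 and 292 CPM in the 5 EM-mGC libraries. Every EM library lay above the Con mean of 247 ± 73.8 CPM, yet the groups overlapped because Con replicate 3 exceeded EM replicates 1 and 5. The log2 fold change was 0.77 (SE 0.26), with an adjusted p of 0.456 by edgeR and an exact permutation p of 0.0556 (two-sided, n = 5 each). Without EM-mGC replicate 3, the library with the highest Fn1 and the highest mitochondrial share, the log2 fold change was 0.59 (edgeR adjusted p = 0.583).

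Among the laminin receptor chains, Itga6 was the 1 member whose groups did not overlap, against 1.69% of all genes. It had 78.8, 90.1, 94.9, 90.1 and 82.6 CPM in the Con-mGC libraries and 77.9, 65.4, 77.6, 70.1 and 64.2 CPM in the EM-mGC libraries. The gap between the lowest Con and the highest EM library was small, and the means were 87.3 ± 6.49 and 71.0 ± 6.52 CPM. The log2 fold change was -0.30 (SE 0.09), with an edgeR adjusted p of 0.432 and an exact permutation p of 0.00794, the smallest that 5 against 5 mice can give. Over the 20 permutation tests made on members in both experiments, none is adjusted for their number. Itga3, the other laminin receptor chain, had 69.1, 64.6, 59.4, 67.0 and 56.9 CPM in the Con-mGC libraries and 65.1, 48.5, 41.2, 44.8 and 51.2 CPM in the EM-mGC libraries. EM replicate 1 lay inside the Con range and the other 4 EM libraries lay below it. The log2 fold change of Itga3 was -0.34 (SE 0.12, edgeR adjusted p = 0.474, exact permutation p = 0.0397).

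Of the collagen receptor chains, Itga1 had a mean of 28.3 ± 4.202 CPM in the Con-mGC group and 21.7 ± 3.10 CPM in the EM-mGC group, a log2 fold change of -0.39 (SE 0.14, edgeR adjusted p = 0.465). Its reads are uncertain, since Pelo overlaps Itga1 on the same strand, although Pelo itself had a mean of at most 101 counts. Itga2 had almost equal means of 95.7 ± 13.3 and 98.0 ± 35.9 CPM, and 1 library, EM replicate 2 at 159 CPM, stood above the other 4 (66.0 to 96.3 CPM). Of the receptor chains of fibronectin and vitronectin, Itgb3 and Itga5 varied most among EM mice relative to their means. Itgb1 and Itgb5 varied less among EM mice than among sham mice. Itgb3 had 61.4, 79.9, 104, 57.7 and 54.2 CPM in the Con-mGC libraries and 151, 69.7, 58.1, 163 and 129.5 CPM in the EM-mGC libraries, so that 3 EM mice lay above every Con mouse and 2 lay within the Con range. Its log2 fold change was 0.68 (SE 0.29, edgeR adjusted p = 0.514, exact permutation p = 0.103) and 0.85 without EM-mGC replicate 3. Itga5 ranged from 44.1 to 132 CPM over the EM-mGC libraries and from 68.8 to 86.0 CPM over the Con-mGC libraries, with a log2 fold change of 0.12 (SE 0.22). Itgav (204 and 177 CPM), Itgb1 (477 and 529 CPM) and Itgb5 (203 and 185 CPM) had log2 fold changes of -0.21, 0.15 and -0.14 with edgeR adjusted p values of 0.682, 0.693 and 0.748. Single libraries moved these small values. Itgb5 was at -0.026 without Con-mGC replicate 1, Itgav at -0.31 without EM-mGC replicate 2 and -0.099 without replicate 4, and Itgb1 at 0.096 without EM-mGC replicate 4. Without EM-mGC replicate 3, Itga6 was at -0.33, Itga1 at -0.39, Itga3 at -0.28 and Itga5 at 0.28. In the same fit Itgav was at -0.20, Itgb1 at 0.14, Itgb5 at -0.078 and Itga2 at 0.069, and 0 members were called.

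**Figure D2:**
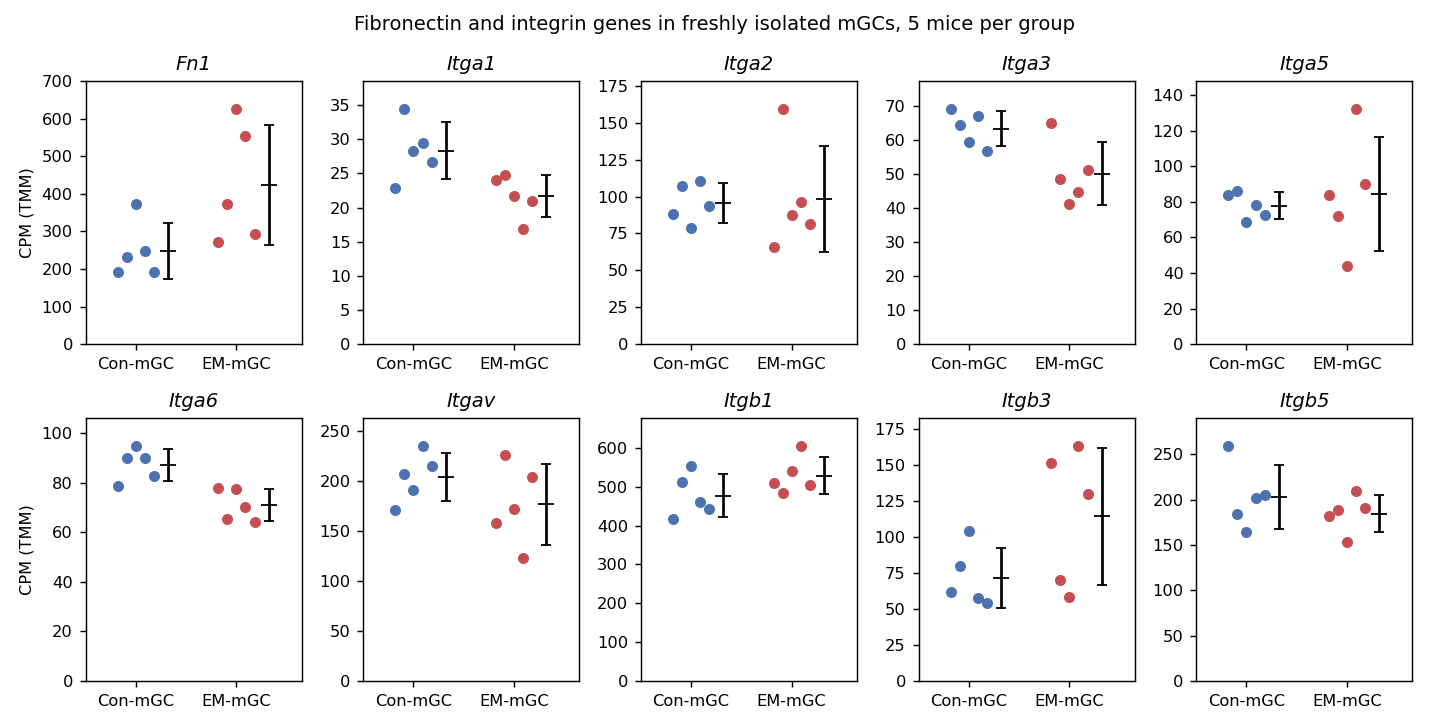
TMM-scaled CPM of each member in freshly isolated mGCs, 1 point per mouse and 1 panel per gene, with the mean ± SD beside the points (n = 5 per group). The groups overlap for every gene but Itga6, whose EM-mGC points (64.2 to 77.9 CPM) lie below the Con-mGC points (78.8 to 94.9 CPM).

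Markers of other cell types differed between these mice too. The 6 neutrophil markers summed to 10.9, 10.8, 61.1, 13.1 and 7.995 CPM in the Con-mGC libraries and to 87.3, 45.3, 75.8, 186 and 186 CPM in the EM-mGC libraries, with none at 0, and S100a9 was the most abundant in the EM-mGC libraries and Con-mGC replicate 3 and Csf3r in the other 4. All 6 had an unadjusted p under 0.05 in the higher direction (median log2 fold change 2.68), and 0 were called. The 9 leukocyte markers, led by Lyz2, summed to 208, 222, 371, 193 and 196 CPM in the Con-mGC libraries and to 305, 265, 679.6, 446 and 372 CPM in the EM-mGC libraries. The 8 platelet markers, of which 1 or 2 were at 0 in each library, summed to between 9.34 and 14.1 CPM and between 13.8 and 25.9 CPM, led by Itga2b or, in EM replicates 3 and 4, Pf4. The 9 stromal markers, led by Col3a1, went the other way, with 1420.5, 1271, 1239, 1303 and 1388 CPM in the Con-mGC libraries and 1151, 498, 934, 908 and 934 CPM in the EM-mGC libraries. The 8 endothelial markers ranged from 195 to 231 CPM in the Con-mGC group and from 115 to 201 CPM in the EM-mGC group, and the 8 smooth muscle and pericyte markers, led by Acta2 over the fresh libraries, from 256 to 389.5 CPM and from 136 to 312 CPM. The 10 granulosa markers, led by Inha, summed to 18305, 14664, 15004, 19707 and 15462 CPM in the Con-mGC libraries and to 13444, 26129, 15591, 8074 and 14347 CPM in the EM-mGC libraries. Their sum was thus highest in EM replicate 2, where Itga2 was highest, and lowest in EM replicate 4, where Itga5 and Itgb3 were highest. The 8 oocyte markers, led by Gdf9, summed to 754, 359, 539, 405 and 792 CPM in the Con-mGC libraries and to 107, 709, 819, 249 and 486 CPM in the EM-mGC libraries, with the lower sums in EM replicates 1 and 4, where Itgb3 was highest, and the highest in replicate 3, where it was lowest. The 7 luteal markers, led by Cyp11a1 or, in EM replicate 2, Hsd3b1, summed to between 12348 and 17909 CPM in the Con-mGC group and to 19125, 13103, 16019, 18008 and 15614 CPM in the EM-mGC libraries, highest in the same replicates 1 and 4. The 6 theca markers, led by Aldh1a1, summed to between 1238 and 1492 CPM and between 891 and 1417 CPM, and 2 of them, Aldh1a1 (690 and 469 CPM) and Gli1 (6.05 and 2.64 CPM in the Con-mGC and EM-mGC groups), were lower and 0 higher at an unadjusted p under 0.05, with 0 called. The 7 surface epithelial markers, led by Krt19 or Upk3b, ranged from 152 to 224 CPM and from 75.4 to 236 CPM. The 5 red blood cell markers summed to between 3775 and 5939 CPM in the Con-mGC group and to 6147, 2647, 17411, 4881 and 5083 CPM in the EM-mGC libraries. The high one, replicate 3, had the highest Fn1, whereas EM-mGC replicate 1, the next highest sum, had the lowest Fn1 of its group (271 CPM). Con-mGC replicate 5, the highest sum of its group, had 193 CPM of Fn1. The leukocyte sum was highest in the library with the highest Fn1 of each group, Con-mGC replicate 3 and EM-mGC replicate 3. Con-mGC replicate 3 also had the highest neutrophil sum and the highest Itgb3 of the Con-mGC libraries, whereas Itgb3 in EM-mGC replicate 3 was the lowest of the EM-mGC libraries. The part of these markers in the values of the members was not tested. Of the leukocyte integrin chains, Itgam had 6.03 and 19.7 CPM and Itgb2 16.05 and 41.4 CPM in the Con-mGC and EM-mGC groups, and neither was called (edgeR adjusted p = 0.376 and 0.379).

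The second comparison asked what 14,15-EET changes in cultured mGCs of EM mice. Fn1 and Itga3 were decreased by EET, and 7 of the other 8 members had lower means that did not pass the test. The 2 members called, both lower, stand against 184 called genes among 15050 tested, or 1.22% (edgeR adjusted p under 0.05). At an unadjusted p under 0.05, 6 members were lower and 0 higher, against 12.4% of all genes in either direction. The groups did not overlap for 4 members, all lower (Fn1, Itga3, Itga6 and Itgb5), against 17.6% of all genes. The median log2 fold change was -0.19 over the members and 0.00107 over all genes tested.

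Fn1 had 243, 281 and 340.5 CPM in the PBS libraries and 187, 159 and 175 CPM in the EET libraries. Each EET library lay below each PBS library, and the PBS libraries differed among themselves by more (SD 49.0 CPM) than the EET libraries (SD 14.1 CPM). The mean was 1.66-fold lower with EET, a log2 fold change of -0.73 (SE 0.10) with an adjusted p of 0.00388 by edgeR. An exact permutation test of 3 against 3 libraries cannot go below 0.1, which is the value it gave for Fn1. Leaving out any 1 library kept the call for Fn1, with edgeR adjusted p values up to 0.0425.

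Itga3 had 132, 122 and 119 CPM in the PBS libraries and 104, 103 and 105 CPM in the EET libraries. The EET libraries were nearly equal and all lay below the PBS libraries. The change was small, 1.20-fold lower, with a log2 fold change of -0.26 (SE 0.05, edgeR adjusted p = 0.0304), and the call was lost when any 1 EET library was left out (adjusted p between 0.105 and 0.185). Itga6, the other laminin receptor chain, had 42.0, 44.7 and 41.7 CPM with PBS and 36.7, 37.8 and 39.99 CPM with EET (log2 fold change -0.17, edgeR adjusted p = 0.266). The highest EET library lay close to the lowest PBS library.

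Itgb5, the most abundant member in culture, had 1961, 1821 and 1873 CPM in the PBS libraries and 1659.8, 1619.7 and 1615 CPM in the EET libraries. All 3 EET libraries lay below the PBS libraries, with a log2 fold change of -0.21 (SE 0.05) that missed the threshold (edgeR adjusted p = 0.0815) and passed it in DESeq2 (adjusted p = 0.00418). For Itgb3 and Itga2 the PBS libraries were spread wide and PBS replicate 1 was the lowest of them. Itgb3 had 125, 147 and 188 CPM with PBS and 138, 119.9 and 116 CPM with EET, and Itga2 had 30.7, 47.8 and 52.4 CPM with PBS and 33.6, 27.7 and 28.9 CPM with EET. In both genes PBS replicate 1 lay below EET replicate 1, so the groups overlapped. The log2 fold changes were -0.30 (SE 0.12) for Itgb3 and -0.54 (SE 0.15) for Itga2, with edgeR adjusted p values of 0.311 and 0.129. Both were called without PBS replicate 1, where 5 members passed. Other single libraries moved them the other way. When 1 library was left out, Itgb3 lay between -0.42 and -0.125, with edgeR adjusted p values up to 0.728. Itga2 lay between -0.73 and -0.39, with edgeR adjusted p values up to 0.463.

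The remaining receptor chains differed little between the groups. Itga5 had 165, 161 and 163 CPM with PBS and 165, 161 and 159 CPM with EET, a log2 fold change of -0.01 (SE 0.04, edgeR adjusted p = 0.951). Itgav had means of 122 ± 2.66 and 118 ± 3.68 CPM (log2 fold change -0.05, SE 0.05), and Itga1 had 12.6 ± 2.66 and 11.4 ± 0.0551 CPM (log2 fold change -0.16, SE 0.13). Itgb1 was the 1 member with a higher mean, 786 ± 57.1 CPM with PBS and 829.6 ± 46.8 CPM with EET, and its groups overlapped (log2 fold change 0.08, SE 0.06, edgeR adjusted p = 0.654). Single libraries moved these small values too. When 1 library was left out, Itga1 lay between -0.31 and -0.025 and Itgb1 between 0.031 and 0.13. Itga5 lay between -0.029 and -0.00022 and Itgav between -0.076 and -0.033, and none of these was called.

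**Figure D3:**
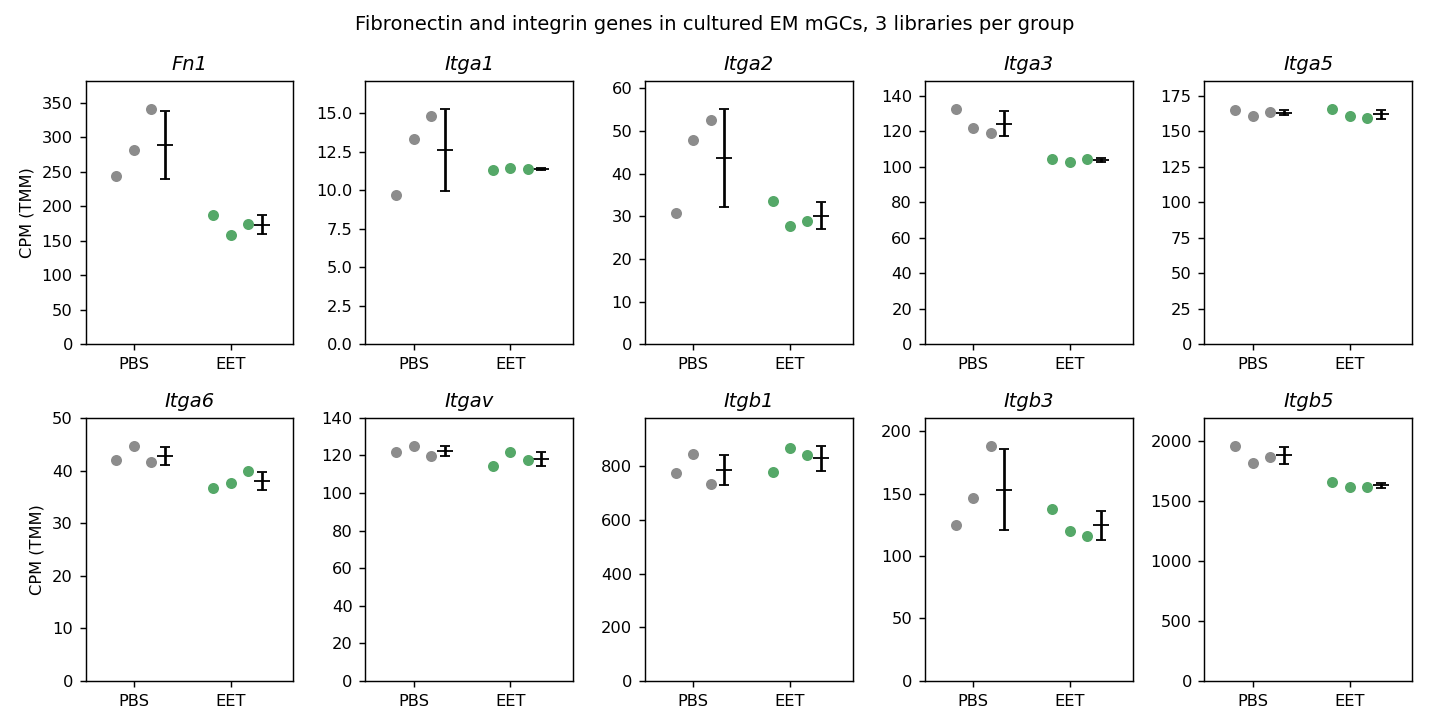
TMM-scaled CPM of each member in cultured mGCs of EM mice, 1 point per library and 1 panel per gene, with the mean ± SD beside the points (n = 3 per group). The EET points lie below all PBS points for Fn1, Itga3, Itga6 and Itgb5, and PBS replicate 1, the leftmost point, is the lowest PBS point for Fn1, Itga1, Itga2 and Itgb3.

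Markers of other cell types were read in the cultured libraries as well. The 6 neutrophil markers summed to at most 0.142 CPM in any cultured library, with 4 or 5 of them at 0. The 9 leukocyte markers, led by Csf1r or Lyz2, summed to 14.1, 14.9 and 16.7 CPM with PBS and 25.1, 15.6 and 23.0 CPM with EET. The 8 smooth muscle and pericyte markers, led by Acta2, summed to 677, 508 and 521 CPM with PBS and 442, 473 and 514 CPM with EET, and Cnn1 among them was called lower (log2 fold change -0.70, edgeR adjusted p = 0.0166). The 9 stromal markers, led by Col1a1, summed to 278, 209.5 and 211 CPM and to 219.8, 226 and 227 CPM, where Ogn was called lower (log2 fold change -0.78, edgeR adjusted p = 0.0230). The 10 granulosa markers summed to 6273, 5838 and 6300.4 CPM and to 5801, 5413 and 5447 CPM, without overlap, and Inha was called lower (log2 fold change -0.36, edgeR adjusted p = 0.0430). The 7 luteal markers, led by Cyp11a1, summed to 8447, 8315 and 8358 CPM with PBS and 8113, 8009 and 7862 CPM with EET, also without overlap, while Ptgfr among them was called higher (log2 fold change 0.94, edgeR adjusted p = 0.0156). Their part in the decreases of Fn1 and Itga3 was not tested.

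Cultured and fresh mGCs of EM mice were then compared, to give the levels of the members in the PBS group beside those in the mice of the same model. Itgb5, Itga3, Itga5, Itgb1 and Itgb3 were higher in the PBS group, and Itga2, Itga6 and Itga1 were lower. The 8 members called stand against 71.7% of the 18484 genes tested at an edgeR adjusted p under 0.05 (73.9% at an unadjusted p), so the share of members called is near the background. Groups did not overlap for 6 members, 4 higher and 2 lower, against 65.3% of all genes. The median log2 fold change was 0.26 over the members and -0.16 over all genes. Culture, the mice, the sequencing of each experiment and the cell makeup described next differ together here and cannot be told apart. CPM in this comparison are scaled over all 16 libraries and so differ from those above.

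Markers of other cell types that were present in the fresh libraries were mostly far lower in culture. In the EM-mGC and PBS groups, the 5 red blood cell markers, led by Hba-a1 in fresh cells, summed to means of 6675 and 0.215 CPM, and 3 of them were at 0 in each PBS library. The 8 oocyte markers, led by Gdf9, summed to 437 and 1.24 CPM, with 5 or 6 at 0 in each PBS library. The 8 endothelial markers, led by Kdr in fresh cells, summed to 152 and 7.58 CPM, and the 7 surface epithelial markers, led by Krt19 or Upk3b there, to 142 and 4.79 CPM. The 9 leukocyte markers summed to 381 and 17.5 CPM and the 6 neutrophil markers to 107 and 0.0977 CPM. Every marker of these 6 lists was called lower in the PBS group by edgeR, against 7398 of the 18484 genes tested. Of the 9 stromal markers, 8 were called lower (817 and 268 CPM), as were 4 of the 5 platelet markers tested (16.5 and 2.59 CPM). The sums of the 6 theca markers, led by Aldh1a1 (1043 and 4191 CPM), and of the 8 smooth muscle and pericyte markers, led by Acta2 (207 and 653 CPM), were higher in culture, although 4 and 5 of their genes were called lower and 1 and 2 higher. The part of these markers in the differences of the members was not tested.

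Itgb5 differed most of the members. It had 169, 174, 141, 192 and 176 CPM in the EM-mGC libraries and 2255, 2078 and 2166 CPM in the PBS libraries, a 12.7-fold difference (log2 fold change 3.67, SE 0.14, edgeR adjusted p = 1.5e-12). The lowest PBS library thus lay far above the highest fresh one. Itgb1 had 472, 447, 498, 555 and 465 CPM in the EM-mGC libraries and 893, 967 and 849 CPM in the PBS libraries (log2 fold change 0.89, SE 0.11, edgeR adjusted p = 1.9e-06), also without overlap. Itgb3 had means of 105 ± 43.9 and 176 ± 37.8 CPM, its groups overlapped, and its call (log2 fold change 0.74, edgeR adjusted p = 0.0285) was lost without PBS replicate 3 or without EM-mGC replicate 2 or 3.

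Among the alpha chains, Itga3 had 46.3 ± 8.62 CPM in the EM-mGC group and 143 ± 8.10 CPM in the PBS group (log2 fold change 1.63, SE 0.12, edgeR adjusted p = 2.8e-09). Itga5 had 77.9 ± 29.2 and 187 ± 3.30 CPM (log2 fold change 1.27, SE 0.21, edgeR adjusted p = 4.1e-05), and its highest fresh library, EM-mGC replicate 4 at 121 CPM, lay below the lowest PBS library at 184 CPM. Itga2 was lower in culture, with 90.3 ± 33.1 and 50.2 ± 13.2 CPM (log2 fold change -0.85, edgeR adjusted p = 0.00363), and so was Itga6, with 65.5 ± 6.16 and 49.2 ± 1.62 CPM (log2 fold change -0.41, edgeR adjusted p = 0.00055). Itga1 had 19.98 ± 2.92 and 14.5 ± 3.09 CPM, and its call (log2 fold change -0.46, edgeR adjusted p = 0.0159) was lost without PBS replicate 1 (adjusted p = 0.130). Fn1 (390.3 ± 146 and 331 ± 57.8 CPM) and Itgav (163 ± 37.3 and 141 ± 2.08 CPM) overlapped and were not called, with log2 fold changes of -0.24 and -0.21 (edgeR adjusted p = 0.428 and 0.209). Itgav was called lower with upper-quartile scaling (log2 fold change -0.48, edgeR adjusted p = 0.00972), with at least 10 counts in every library (-0.40, 0.0240) and without EM-mGC replicate 4 (-0.32, 0.0244), and Fn1 reached -0.50 with upper-quartile scaling without being called (edgeR adjusted p = 0.0979). Upper-quartile scaling moved the median of all genes by -0.26 and the split of called genes from 5853 higher and 7398 lower to 4242 higher and 9042 lower. When 1 library was left out, Fn1 lay between -0.37 and -0.11 and Itgav between -0.32 and -0.11. Their edgeR adjusted p values then reached 0.751 and 0.474.

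**Figure D4:**
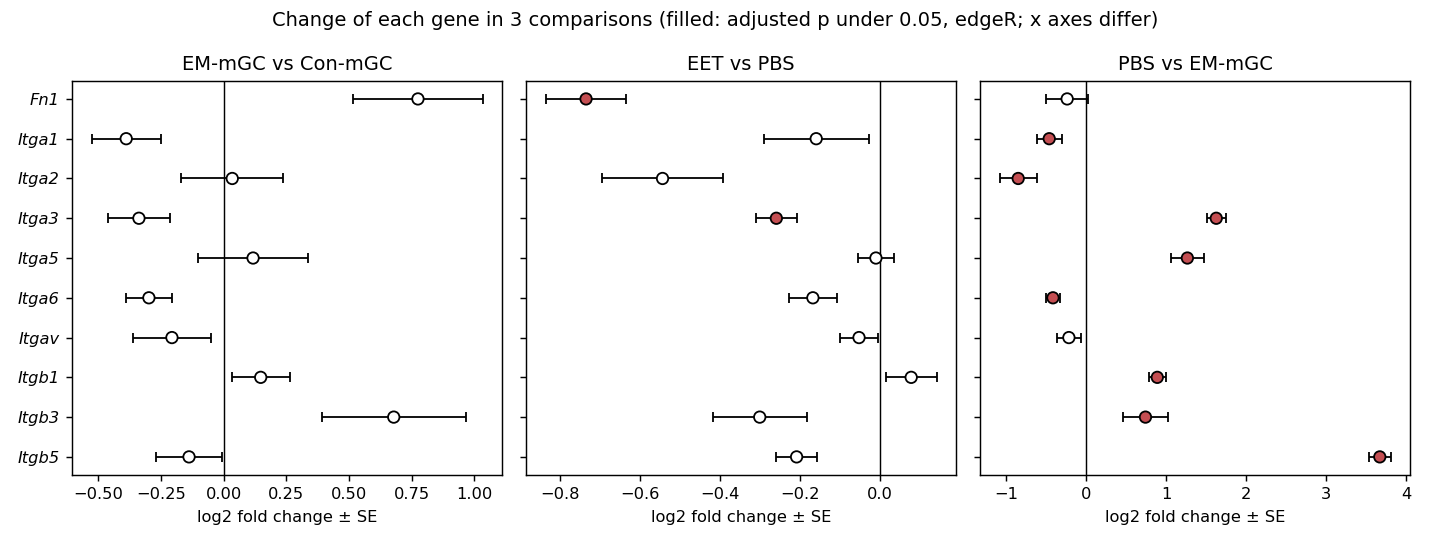
Log2 fold change ± SE of each member in the 3 comparisons, filled where the edgeR adjusted p was under 0.05, with an x axis of its own for each panel. No gene is filled in the EM-mGC and Con-mGC panel, Fn1 (-0.73) and Itga3 (-0.26) are filled in the EET and PBS panel, and Itgb5 (3.67) lies farthest from 0 in the PBS and EM-mGC panel.

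The rest of the adhesion system was read from lists of other subunits, ligands and linker proteins. Of 17 other integrin subunits, 15 were tested in the fresh comparison, of which 0 were called and 3 higher and 2 lower had an unadjusted p under 0.05, against 899 higher and 727 lower of all 17229 genes (9.44% in either direction). Itgb4, a laminin receptor chain of hemidesmosomes, had 6.96 and 4.08 CPM in the Con-mGC and EM-mGC groups, and Itga8 had 7.08 and 4.36 CPM. Itga9 was the most abundant at 154 CPM over the fresh libraries. None of the 10 subunits tested was called with EET (0 genes, and 1 at an unadjusted p under 0.05 by edgeR, against 1.22% of all genes called and 12.4% at the unadjusted level). In the PBS group 12 of 15 were called lower and 0 higher than in the EM-mGC group, where 71.7% of all genes were called (5853 of 18484 higher and 7398 lower), among them the leukocyte chains Itgam (18.1 and 0.0139 CPM), Itgb2 (38.2 and 0.321 CPM) and Itgb7 (7.36 and 0.0649 CPM in the EM-mGC and PBS groups).

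Matrix ligands other than fibronectin included thrombospondin-1 (Thbs1), the most abundant at 936 CPM in fresh mGCs. In the EM-mGC group 0 of 28 ligands tested were called, 2 were higher and 10 lower at an unadjusted p under 0.05 (899 and 727 of all 17229 genes), and their median log2 fold change was -0.31, against -0.01 over all genes. Spp1 (osteopontin) had 21.6 and 237 CPM in the Con-mGC and EM-mGC groups (edgeR adjusted p = 0.376), and Col1a1 (a chain of type I collagen) had 395 and 202 CPM (edgeR adjusted p = 0.348). Col1a1 is also among the 9 stromal markers, whose sums had means of 1324 and 885 CPM in the same groups (median log2 fold change -0.43). The part of stromal markers in the lower ligand values was not tested. With EET, 0 of 26 ligands were called by edgeR, and 4 higher and 3 lower had an unadjusted p under 0.05, against 1.22% of all genes called and 908 higher and 960 lower of 15050 at the unadjusted level. The decrease of Fn1 with EET was therefore the 1 called change when fibronectin and these ligands are counted together. In the PBS group 11 of 29 were called higher and 15 lower than in the EM-mGC group, against 71.7% of all genes called in either direction. The basement membrane collagen chains Col4a1 and Col4a2 had 593 and 334 CPM in the EM-mGC group and 6496 and 3633 CPM in the PBS group, and Ccn1, a matrix-bound integrin ligand, had 58.5 and 1117 CPM.

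Linker and signalling proteins of integrin adhesions were led by filamin A (Flna, 704 CPM in fresh mGCs). Of 32 tested in the fresh comparison 0 were called, with 2 higher and 3 lower at an unadjusted p under 0.05 (9.44% of all genes in either direction), and Dock1 had 72.6 and 56.0 CPM in the Con-mGC and EM-mGC groups (edgeR adjusted p = 0.348). With EET, 1 of 31 was called against 1.22% of all genes, Cav1 (caveolin-1), which rose from 261 to 350.3 CPM (log2 fold change 0.42, SE 0.05, edgeR adjusted p = 0.00227). In the PBS group 22 of 32 were called higher and 4 lower than in the EM-mGC group, against 5853 of 18484 genes higher and 7398 lower over all genes. The alpha-actinins Actn1 and Actn4, which crosslink actin, had 118 and 173 CPM in the EM-mGC group and 1644 and 1434 CPM in the PBS group, and the scaffold Bcar1 had 55.2 and 619 CPM. Fermt3, the kindlin of blood cells, was lower (15.1 and 0.977 CPM), as was Parvb (79.1 and 20.3 CPM).

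Genes that assemble fibronectin matrix or bind it outside the integrin family were led by Ltbp1, a latent TGF-beta binding protein (847 CPM in fresh mGCs). In the fresh comparison 0 of 16 were called and 6 higher and 0 lower had an unadjusted p under 0.05 (899 and 727 of all 17229 genes), with a median log2 fold change of 0.28, against -0.01 over all genes. Plaur, the urokinase receptor, had 4.38 and 12.1 CPM in the Con-mGC and EM-mGC groups, and the crosslinking enzyme Lox had 12.6 and 24.3 CPM (edgeR adjusted p = 0.348 and 0.418). With EET, 2 of 15 were called, against 1.22% of all genes, and went opposite ways. Ltbp1 rose from 350.3 to 465 CPM (log2 fold change 0.41, SE 0.06, edgeR adjusted p = 0.00574), and Fbln2 (fibulin-2, which binds fibronectin) fell from 188 to 148 CPM (log2 fold change -0.34, SE 0.06, edgeR adjusted p = 0.0209). In the PBS group 8 of 16 were called higher and 5 lower than in the EM-mGC group, a share near the 71.7% of all genes called, with Lox at 22.3 and 899 CPM and the transglutaminase Tgm2 at 62.4 and 7.59 CPM in the EM-mGC and PBS groups.

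Members varied with one another across the 10 fresh libraries, given here as a description, since the libraries share group and cell makeup. On log2 CPM, Pearson's r was 0.81 between Fn1 and Itgb1, 0.73 between Itga1 and Itga6 and 0.72 between Itga1 and Itgav, and the lowest was -0.85 between Fn1 and Itga3. Genes like Fn1 over these 10 libraries were sought among those of at least 3 mean log2 CPM, leaving out symbols of predicted genes. The 5 most like it were Ndufb3 (r = 0.966), Syncrip (0.965), Rnf4 (0.963), Hilpda (0.953) and Lrrc8b (0.951), and no integrin subunit was among them. With EET the same 5 genes had log2 fold changes between -0.07 and 0.22, and none was called (edgeR adjusted p between 0.343 and 0.954).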

How the data were processed

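The authors deposited raw read counts per Ensembl gene, 1 column per library, in 2 tables whose names give featureCounts as the counter. The submitters' processing notes name fastp, HISAT2, StringTie and GRCm39, without roles. Neither versions nor how strand and shared reads were handled are given in the sources used here, so genes that overlap another are uncertain. Among the members these were Fn1, Itga1, Itga5, Itga6 and Itgav, whose overlapping genes had mean counts of at most 1.31, 101, 0, 0.125 and 2.25. Libraries were stranded poly(A), read for 150 bases from both ends. All columns were mapped by library name and 0 were left unused.

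The study's methods name DESeq2. Here counts were tested with edgeR 4.0.16 (filterByExpr, TMM, quasi-likelihood test, Benjamini-Hochberg over all genes tested, called at 0.05) in R 4.3.3, each experiment in its own fit and the culture comparison in a fit of all 16 libraries. Single values were also compared with two-sided exact permutation tests (scipy 1.17.1). The steps were tested on simulated data. TPM used exon lengths of GENCODE vM21, held by 52081 of the 57010 genes and by all 10 members. Sequences come from RefSeq (GRCm38.p6), and coordinates of the counts (GRCm39) were not used with them.

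Con-mGC and EM-mGC libraries came from separate mice. The cultured replicates are described as paired, but their numbers are not tied to mice, so the block by replicate number was an alternative. P-values measure the spread between these libraries. The members and gene lists were chosen with earlier results of these data known. All members are named, and from each other list its most abundant fresh gene, at most 3 called genes with the largest change each way (mean log2 CPM of at least 1), and in the fresh comparison at most 2 with the smallest p each way, of which the text gives a part. Foxl2 and the leading genes of marker sums are named outside this rule. Alternatives were DESeq2 1.42.0, RLE and upper-quartile scaling, no filter, at least 10 counts in every library, the replicate block, a fit of EM-mGC and PBS libraries only, and leaving out each library in turn.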

Additional observations from a re-analysis of the deposited data

How the results depend on the processing

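In the fresh comparison no member was called under any alternative. The number of genes called, 0 with edgeR, was 113 with DESeq2, 4 with no filter and between 0 and 46 when 1 library was left out, with 46 without Con-mGC replicate 3 and 1 without EM-mGC replicate 1. Directions turned only for members whose change was small. Itga2 (0.03) was between -0.21 and 0.15 when 1 library was left out, below 0 without Con-mGC replicate 3 (-0.03) and EM-mGC replicate 2, and Itga5 (0.12) was between -0.10 and 0.28, below 0 without EM-mGC replicate 4. For EET against PBS, the 184 genes called became 341 with DESeq2 and 662 with no filter, and between 48 and 436 when 1 library was left out (350 without PBS replicate 1, 436 without PBS replicate 2, 122, 61 and 48 without EET replicates 1, 2 and 3). The 2 members called became 3 with DESeq2, where Itgb5 was added, 5 with no filter, and between 1 and 5 when 1 library was left out (5 without PBS replicate 1, and 1 without each EET library, where Fn1 was the member called). Between culture and fresh cells, 8 members were called and between 7 and 9 when 1 library was left out. There the call for Itgb3 was lost with upper-quartile scaling (adjusted p = 0.155), with at least 10 counts (0.102) and with EM-mGC and PBS libraries only (0.0678), and the cause was not tested. With the replicate number as a block, 2 genes were called in the fresh comparison and 341 for EET against PBS, the members called stayed at 0 and 2 in number, and Itga2 turned to -0.021 in the fresh comparison. Deviations of equally numbered EET and PBS libraries correlated at 0.0856, 0.159 and -0.0434. Unlike numbers were not correlated beside them, so these values cannot decide whether equal numbers mark pairs. Equal numbers were not taken as pairs because they are not tied to mice. Every member had at least 204 counts in each library, and the number of libraries, 3 in each cultured group, limits the precision.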

Other observations

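Integrins of the alphav family also release latent TGF-beta, and the genes of that system were read as a further list. Ltbp3 was the most abundant of them in fresh mGCs, at 414 CPM. Of 11 genes tested in the fresh comparison 0 were called, and 2 had an unadjusted p under 0.05, both lower (9.44% of all genes in either direction), with Ltbp4 at 121 and 61.0 CPM and Ltbp2 at 8.01 and 4.47 CPM in the Con-mGC and EM-mGC groups (edgeR adjusted p = 0.270 and 0.348). With EET 0 of 11 were called by edgeR, with 1 higher and 1 lower at an unadjusted p under 0.05, against 1.22% of all genes called and 12.4% at the unadjusted level. In the PBS group 5 were called higher and 4 lower than in the EM-mGC group, against 71.7% of all genes called. The ligand Tgfb2 had 11.003 and 68.5 CPM, and the receptor Tgfbr2 had 27.5 and 91.5 CPM in the EM-mGC and PBS groups. Itgb8, the other beta partner of alphav tested in this list, had 5.49 and 1.25 CPM, Ltbp4 had 56.3 and 4.21 CPM, and the receptor Tgfbr1 had 232 and 98.8 CPM. Culture, the mice, the sequencing and the cell makeup cannot be told apart in these last values.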
